A study of Drosophila melanogaster with 6 samples.

Results

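Antisense RNA genes are transcribed from the strand opposite another gene. In embryos of 2 Drosophila melanogaster lines, 58 genes carried names beginning with asRNA: among the 10526 genes of the authors' deposited result table, and these 58 are described here. The mutant line, sggisoD-CI-DS-SFS, was homozygous and carried changes at 2 consensus caspase recognition sites of shaggy (sgg), which encodes the fly's glycogen synthase kinase 3. The control, sggisoD-DS-SFS, carried the tags alone. Both lines carried, by CRISPR-Cas9 engineering, a DsRed fluorescent tag at the N-terminus and a StrepII-Flag-StrepII tag inside the protein. Each line gave 3 separate collections of embryos aged 10 to 15 hours, matched for stage per the labels. Each line was a single stock, so the site changes and other differences between the stocks cannot be told apart.

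Antisense transcripts of this class are mostly long and noncoding. Where such a transcript and its partner on the other strand overlap, the RNAs can pair, the polymerases can meet, or the antisense promoter can share chromatin with the partner, and some antisense RNAs are known to alter their partner's expression by these routes. Many others are rare, and no function is known for them. Most of the 58 genes have only a catalogue name, and no role is given for them here. Their partners are better known.

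RNA was taken from pooled whole embryos, selected for poly(A) tails and sequenced. The mutant libraries held 15160388 to 15641368 counted reads and the control libraries 12646077 to 19454630. Expression is given as normalised CPM, a gene's reads brought to a common library size after scaling by the trimmed mean of M-values. The gene sgg was at 306 ± 2.77 CPM in the mutant line and 302 ± 15.5 CPM in the control line (SD, n = 3 each), and its log2 fold change was 0.02 (standard error 0.06). Fold changes are mutant over control, and p-values are from edgeR's quasi-likelihood test with Benjamini-Hochberg adjustment over all 10526 genes, called at an adjusted p under 0.05. The p-values measure only the spread between these collections. Markers of neurons, glia, muscle, trachea, blood cells, germ cells and fat body all had reads, except the tracheal marker dys, which was not in the count table. The list of 8 genes of adult eye, seminal fluid and yolk, of which 7 were in the count table, summed to 4.65 to 6.58 CPM in mutant and 5.00 to 6.45 CPM in control libraries, with Acp26Aa at 0 in every library. A list of earlier embryos had 1 gene higher and 8 lower of 19 tested (median log2 fold change -0.25), with summed levels of 434 to 436 CPM in mutant and 456 to 490 CPM in control libraries. A list of later embryos had 9 higher and 3 lower of 20 tested (median 0.36), with 15203 to 16598 CPM in mutant and 14623 to 14853 CPM in control libraries. Of 6 markers of somatic muscle, 5 were higher and none lower, with 15949 to 16360 CPM in mutant and 12744 to 13661 CPM in control libraries. Of 6 blood cell markers 1 was higher and 1 lower, and their sum was 2138 to 2389 CPM in mutant and 1585 to 2015 CPM in control libraries. Of 6 fat body markers 3 were tested, with 2 higher and 1 lower (median log2 fold change 0.48), while the sum of the 6 was lower, at 3886 to 4486 CPM in mutant and 4930 to 5861 CPM in control libraries. Sums for neurons, glia, trachea and germ cells overlapped. Of 6 neuron markers, however, 3 were higher and 1 lower (median log2 fold change 0.22). The lists of glia, trachea and germ cells each had 0 higher and 1 lower. In whole embryos, fewer cells of a type and less RNA per cell cannot be told apart. The part of embryo age or tissue makeup in the antisense results was not tested.

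The antisense genes were placed by the Ensembl release 115 annotation of BDGP6, matched by gene identifier, since the build behind the counts is not given in the sources used here. They lay on X (12 genes), 2L (8), 2R (12), 3L (9), 3R (13) and the small chromosome 4 (4). Of the 58, 26 had a single block of exon. Their exonic length ran from 402 to 5936 bases, with a median of 1281. For 53 genes the exons overlapped, on the opposite strand, exons of a tested gene, which is called the partner. Where several tested genes overlapped, as for 5 of the 53, the most abundant was taken, which in each case was the one with fewer shared bases. The shared stretch was 2 to 2008 bases long, with a median of 308. The genes asRNA:CR45479 and asRNA:CR44690 are each other's partner, with overlapping ends on the X chromosome. Of the other 5 genes, asRNA:CR45481 had a divergent neighbour, and 4 had no tested partner. Among these, asRNA:CR45182 and asRNA:CR45485 had no opposite-strand gene of the count table over their exons.

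How much of an antisense gene lies under other genes went with whether it was counted at all. The reference names 490 genes of the count table asRNA:, and 425 of them had too few reads to be tested, with at most 26 reads in any library. The exonic bases that overlapped exons of any other gene in the count table made up a median of 41.0% in the 58 antisense genes described here and 74.7% in the 425 untested ones. Among the 60 antisense genes with 95% or more of their bases shared, 50 had no read in any library (83.3%). Of the 275 with 50% to under 95% shared, 85 had none (30.9%), and of the 155 with less than 50% shared, 16 had none (10.3%). The 58 genes fell 1, 21 and 36 into these classes, in the same order.

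The same was measured over genes of all kinds, antisense genes included, so these counts are not independent of those above. Genes of at least 200 exonic bases with 95% or more of them under a gene of at least 1000 reads on the opposite strand were at 0 in all libraries in 44 of 50 cases (88%). Where the covering gene lay on the same strand, 33 of 35 were at 0 (94.3%). Of 11302 genes with no exonic overlap, 1242 were at 0 (11.0%). The library kit keeps the strand of the RNA, but the sources used here do not say whether the counting used it or how it treated reads on shared bases. The part of the counting in the levels and calls below was not tested. In asRNA:CR43683, 95.9% of the exonic bases lie under CG5850 and 45 bases are unshared, and it had 13, 11 and 1 reads in the mutant libraries, against 6, 14 and 12 in the control libraries.

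**Figure D1:**
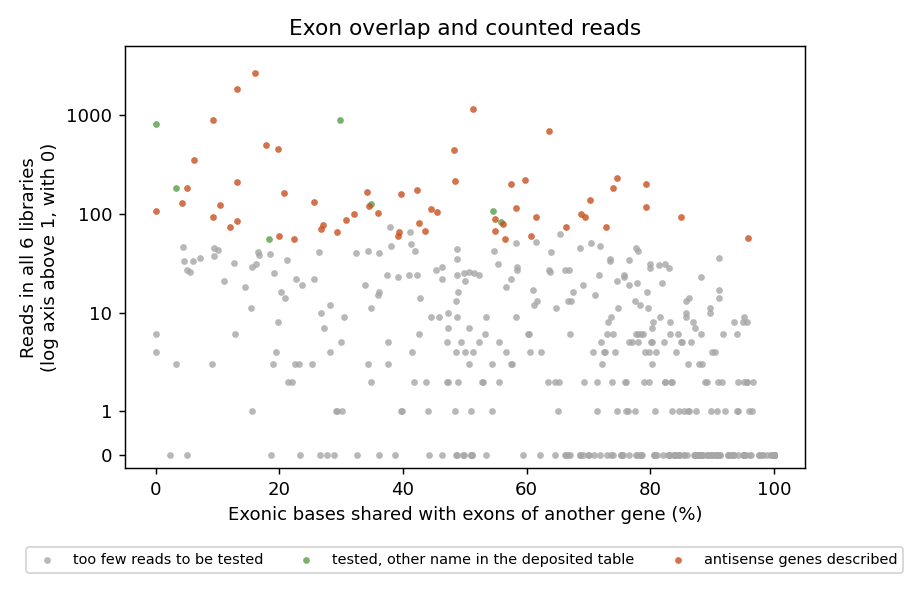
Reads in all 6 libraries (log axis above 1, with 0) against the share of exonic bases that overlap exons of another gene, for 490 genes that the reference names antisense. Each point is a gene, coloured by whether it is one of the 58 described, was tested under another name or had too few reads, and most genes with 95% or more shared sit at 0.

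The antisense genes were rare. Their mean level over the 6 libraries ran from 0.55 to 27.6 CPM with a median of 1.13 CPM, against a median of 26.9 CPM over all tested genes. Together they took 0.0151% of all counted reads, and the 3 most abundant held 38.9% of that. In all libraries together a gene had 55 to 2670 reads, and 30 of the 58 had fewer than 10 reads in at least one library. The depth therefore limits what can be said of most of them. The floor of 3 reads was 0.196 to 0.199 CPM in mutant and 0.153 to 0.236 CPM in control libraries, and covers counting error only.

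The most abundant was asRNA:CR45185 (FBgn0267495, X, 10044909 to 10048156, reverse strand), inside the chitinase gene Cht6. Its levels were 22.8, 33.4 and 31.6 CPM in the mutant libraries, against 22.5, 26.3 and 28.8 CPM in the control libraries. The lines overlapped, with a log2 fold change of 0.17 (standard error 0.15, edgeR adjusted p 0.456). Another of the 6 most abundant was asRNA:CR43629 (FBgn0263620, 3R, 4452705 to 4454295, forward strand), opposite CG31522, a predicted fatty acid elongase. It was at 8.96, 11.5 and 9.26 CPM in the mutant libraries and at 8.10, 7.91 and 9.62 CPM in the control libraries. These also overlapped (log2 fold change 0.21, standard error 0.15). Opposite CG3987, asRNA:CR45600 (FBgn0267160, 3R, 15136985 to 15140121, reverse strand) had 7.77, 10.9 and 6.71 CPM in the mutant libraries and 9.43, 5.51 and 4.00 CPM in the control libraries. Control collection 1 was the highest of its line and lay within the mutant range. The log2 fold change was 0.45 (standard error 0.31, edgeR adjusted p 0.341), and 0.82 without control library 1 (edgeR adjusted p 0.0466). Without control library 3 it was 0.19 and without mutant library 2 it was 0.22 (edgeR adjusted p 0.678 and 0.687). The gene did not pass in 13 of 14 alternatives. Opposite CG17162, asRNA:CR43480 (FBgn0263457, X, 23090324 to 23093609, forward strand) averaged 5.53 ± 0.48 CPM in the mutant line and 4.74 ± 0.62 CPM in the control line (SD, n = 3 each), and its lines overlapped (log2 fold change 0.22, standard error 0.17). The next in abundance after asRNA:CR45185, asRNA:CR44029 and asRNA:CR45139, passed the test and are described below.

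**Figure D2:**
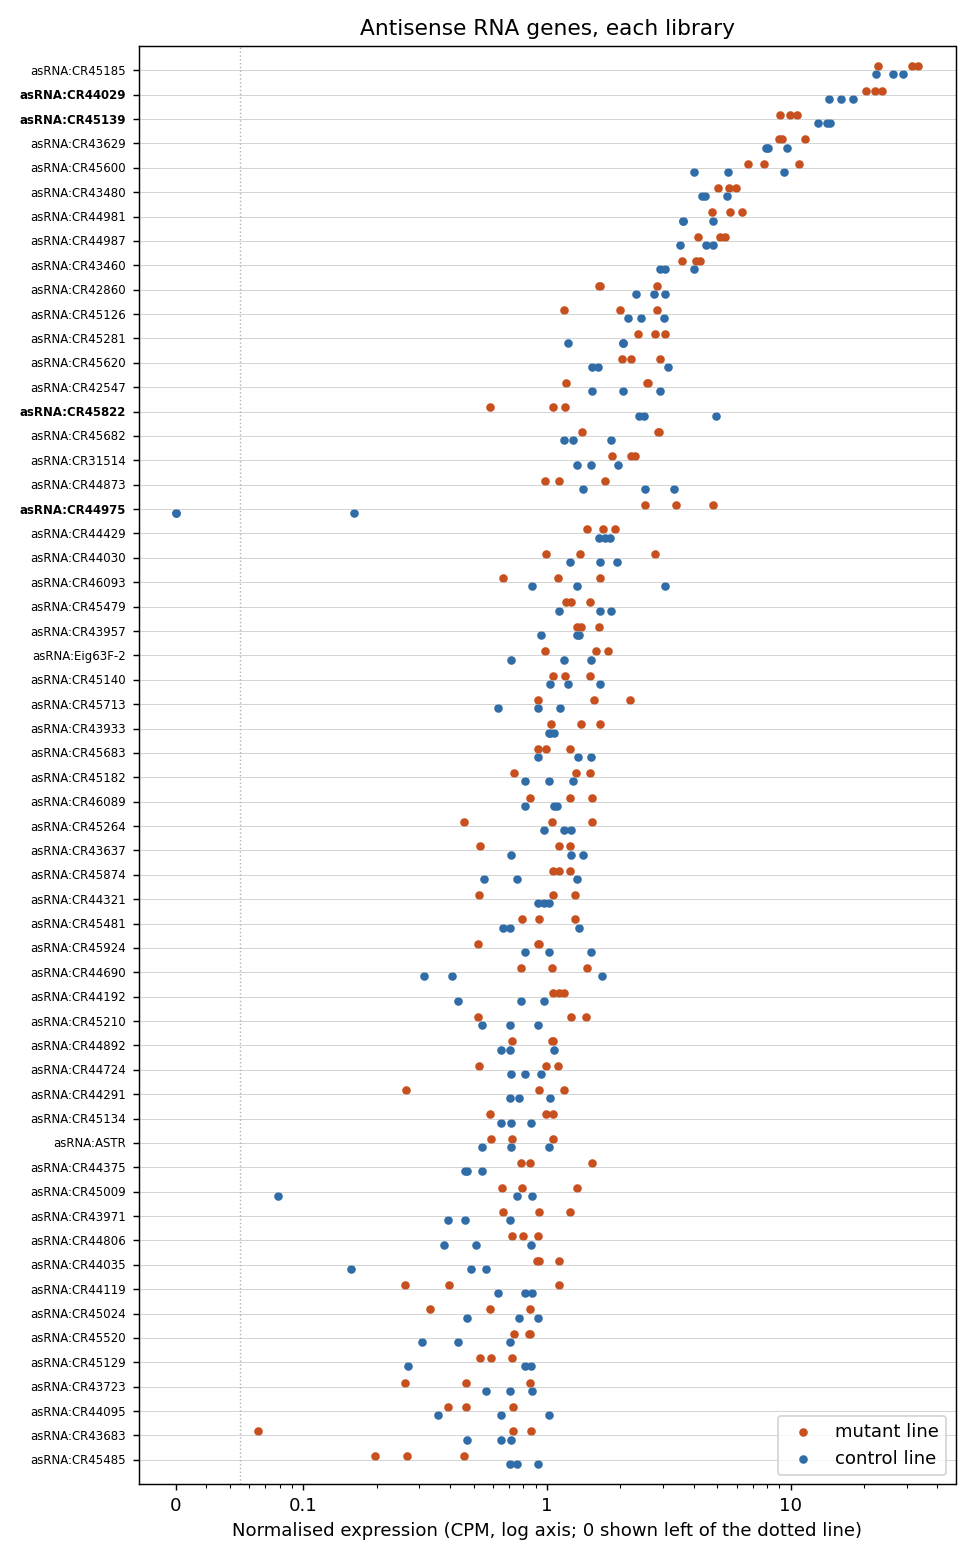
Normalised expression (CPM, log axis) of the 58 antisense RNA genes, ordered by mean level, in the 3 mutant (upper points of a row) and 3 control libraries (lower points). Names in bold are the 4 genes past the threshold, and asRNA:CR44975 stands apart with control libraries at 0 or 0.162 CPM.

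Per kb of exon, the antisense genes were mostly below their partners. The median ratio of partner to antisense gene was 11.5 in CPM per kb, and 10.8 with the gene of the most shared bases taken as partner. Per kb of unshared bases of both genes, a scale chosen after seeing the data, the median was 8.25. On each scale 3 of 53 antisense genes lay above their partner, but they were not the same 3. Per kb of all exonic bases these were asRNA:CR43480, asRNA:CR44981 and asRNA:CR45479, and per kb of unshared bases asRNA:CR44030, asRNA:CR45479 and asRNA:CR45822. Opposite CG17162, asRNA:CR43480 was at 2.24 CPM per kb of all exonic bases and its partner at 0.37. CG17162 has 4896 exonic bases, and 93.8% of them are shared with other genes of either strand. Only 408 of them are shared with asRNA:CR43480. Per kb of unshared bases the order turned, with asRNA:CR43480 at 2.73 and CG17162 at 5.91. The same held for sky, which encodes a Rab GTPase-activating protein of the synapse. Of the exonic bases of sky, 76.1% are shared with other genes of either strand, but only 7.64% with genes on the opposite strand. The genes sky and asRNA:CR44981 share 261 bases. Per kb of all exonic bases asRNA:CR44981 was at 3.65 and sky at 1.72, and per kb of unshared bases asRNA:CR44981 was at 4.55 and sky at 7.21. The gene asRNA:CR31514 shares 10 bases with the ribosomal protein gene RpS29, which had 1821 times its CPM per kb of exon, and 1334 bases with CG12947. Set against CG12947, asRNA:CR31514 was at 0.587 CPM per kb of exon and CG12947 at 0.877. Of the exonic bases of CG12947 78.7% are shared, and per kb of unshared bases asRNA:CR31514 was at 1.02 and CG12947 at 4.12. Across the 53 genes the level per kb of an antisense gene and of its partner had a Spearman's rho of 0.40, a description over genes that share libraries. Per kb of all exonic bases the leading genes were asRNA:CR45185 (8.49), asRNA:CR43629 (6.78), asRNA:CR45139 (6.35) and asRNA:CR44975 (4.34). Per kb of unshared bases asRNA:CR45139 led (13.1), followed by asRNA:CR43683 (12.9), asRNA:CR45822 (11.6) and asRNA:CR45185 (10.1).

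Between the lines, 4 of the 58 antisense genes passed the test (6.90%), 2 higher and 2 lower in the mutant line. Over all tested genes 22.3% passed, 13.7% higher and 8.67% lower. At an unadjusted p under 0.05 there were 9 antisense genes (15.5%), against 36.1% of all tested genes. Among genes named lncRNA:, the other long noncoding class of the table, 26 of 228 passed (11.4%). Rarer genes had wider errors. The median standard error of the log2 fold change was 0.38 for antisense genes and 0.11 over all tested genes. Under a mean of 1 CPM, none of 24 antisense genes passed in edgeR's test, against 7.69% of all genes there, and 3 had an unadjusted p under 0.05. The DESeq2 Wald test and limma-voom called the same 4 genes as edgeR's test. From 1 to 5 CPM, 2 of 28 passed, against 14.8%. Above 5 CPM, 2 of 6 passed, against 24.5%.

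The estimated log2 fold change was above 0 for 35 of the 58 antisense genes (60.3%), against 48.5% of all tested genes. Their median was 0.19, against -0.01 over all genes. Among all genes under 1 CPM, 56.1% were above 0, and 56.4% were from 1 to 5 CPM. The summed level of the 58 genes was 160 ± 10.0 CPM in the mutant line and 143 ± 2.81 CPM in the control line (SD, n = 3 each). Its values were 151, 171 and 158 CPM in the mutant libraries, against 146, 142 and 141 CPM in the control libraries, so the lines did not overlap. Without the 3 most abundant genes the sums were 95.8, 108 and 92.9 CPM in the mutant libraries, against 94.9, 83.4 and 83.1 CPM in the control libraries. These overlapped.

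**Figure D3:**
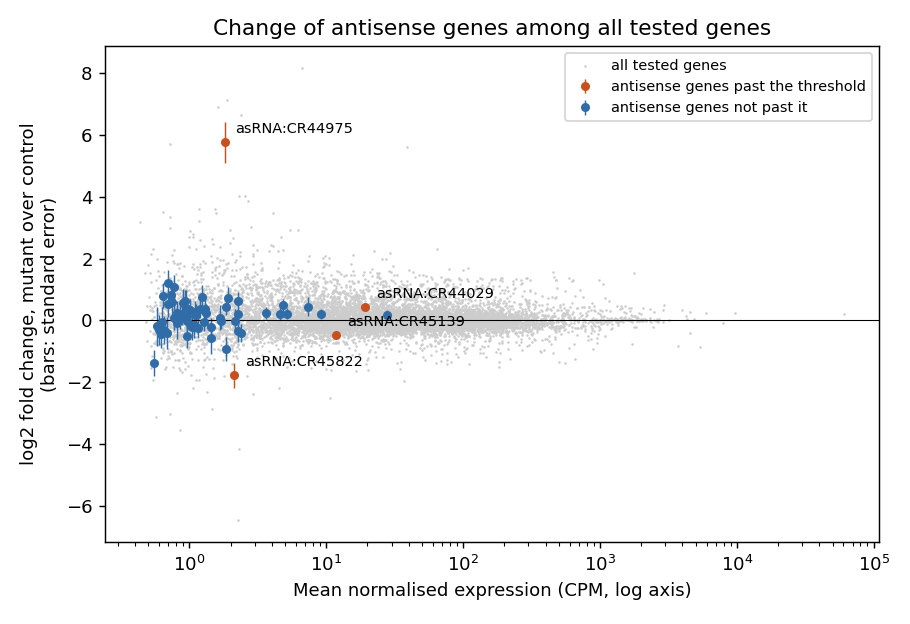
The log2 fold change, mutant over control, against mean normalised expression (CPM, log axis) for all tested genes (grey) and the 58 antisense RNA genes with standard errors. The 4 antisense genes past the threshold are named, and most of the others lie among the rarer genes with wide errors.

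The clearest difference was at asRNA:CR44975 (FBgn0266310, 2L, 16697344 to 16697761, reverse strand), a gene of 418 exonic bases. It lies within and opposite grapes (grp), the fly Chk1 kinase of the DNA damage and replication checkpoint. It had 38, 73 and 52 reads in the mutant libraries, against 0, 0 and 3 in the control libraries. No mutant library came near the control range, and the gene met the filter through the mutant line alone. It averaged 3.57 ± 1.15 CPM over the mutant libraries (SD, n = 3). This was at least 19.4-fold higher than the mean of the 3-read floor over the control libraries, and the gene passed with an edgeR adjusted p of 0.00147. It passed under each of the 14 other fits run. The partner grp rose by far less, to 64.0 ± 5.12 CPM in the mutant line, against 52.1 ± 3.04 CPM in the control line (SD, n = 3 each). Its log2 fold change was 0.29 (standard error 0.08, edgeR adjusted p 0.0348). The call of grp was lost in 6 of 14 alternatives, with an adjusted p of up to 0.118. The antisense gene shares 143 bases with grp exons and has 275 unshared bases. Next to it on the same strand, the pseudogene CR43669 (2L, 16699921 to 16700825) had 55, 85 and 74 reads in the mutant libraries, against 2, 0 and 0 in the control libraries. It passed as well (edgeR adjusted p 0.000832), but CR43669 also met the filter through the mutant line alone and was named after its values were seen. Its p-value therefore cannot be read apart from that filter. Both of these neighbouring genes were near 0 in the control line.

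The other gene that rose was asRNA:CR44029 (FBgn0264821, chromosome 4, 879374 to 884752, forward strand). It lies wholly inside unc-13, which primes synaptic vesicles for release. Its levels were 22.2, 20.5 and 23.8 CPM in the mutant libraries, against 14.4, 18.1 and 16.1 CPM in the control libraries. The lines did not overlap, with a log2 fold change of 0.45 (standard error 0.11, edgeR adjusted p 0.0233). The partner unc-13 was at 341 ± 14.6 CPM in the mutant line and 286 ± 22.7 CPM in the control line (SD, n = 3 each), with a fitted log2 fold change of 0.26 (standard error 0.07, edgeR adjusted p 0.0386). The ratio of the antisense gene to unc-13 did not pass (log2 ratio difference 0.20, standard error 0.13, limma adjusted p 0.388). The call of asRNA:CR44029 was lost without mutant library 1, mutant library 3 or control library 3 (edgeR adjusted p 0.0735, 0.0985 and 0.0648). That of unc-13 was lost in 8 of 14 alternatives, with an adjusted p of up to 0.17.

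The largest fall among called antisense genes was at asRNA:CR45822 (FBgn0267472, 3L, 7355717 to 7356598, forward strand). It lies opposite CTCF, the insulator protein that binds DNA at domain boundaries, and 79.4% of its 882 exonic bases are shared. It had 16, 18 and 9 reads in the mutant libraries, against 63, 49 and 44 in the control libraries. Its levels were 1.06, 1.18 and 0.587 CPM in the mutant libraries, against 4.95, 2.50 and 2.38 CPM in the control libraries. It was lower in 3 of 3 mutant libraries than in any control library, and control library 1 was far above the other controls. The log2 fold change was -1.76 (standard error 0.40, edgeR adjusted p 0.0166), and the adjusted p was 0.0606 without mutant library 3. CTCF itself was at 21.2 ± 1.73 CPM in the mutant line and 23.1 ± 3.16 CPM in the control line, with a log2 fold change of -0.13 (standard error 0.12, edgeR adjusted p 0.48).

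The last of the 4 was asRNA:CR45139 (FBgn0266632, 2R, 3943429 to 3949757, forward strand), opposite unextended (uex), a magnesium transporter of the CNNM family. Its levels were 10.6, 9.08 and 9.97 CPM in the mutant libraries, against 14.5, 14.1 and 13.0 CPM in the control libraries. The lines lay apart, and the gene fell by 0.48 in log2 units (standard error 0.11, edgeR adjusted p 0.0190). The call was lost without mutant library 2, mutant library 3 or control library 2 (edgeR adjusted p 0.0553, 0.0547 and 0.0586). The partner uex was at 173 ± 6.25 CPM in the mutant line and 173 ± 8.94 CPM in the control line (SD, n = 3 each), with a fitted log2 fold change of -0.0033 (standard error 0.06).

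**Figure D4:**
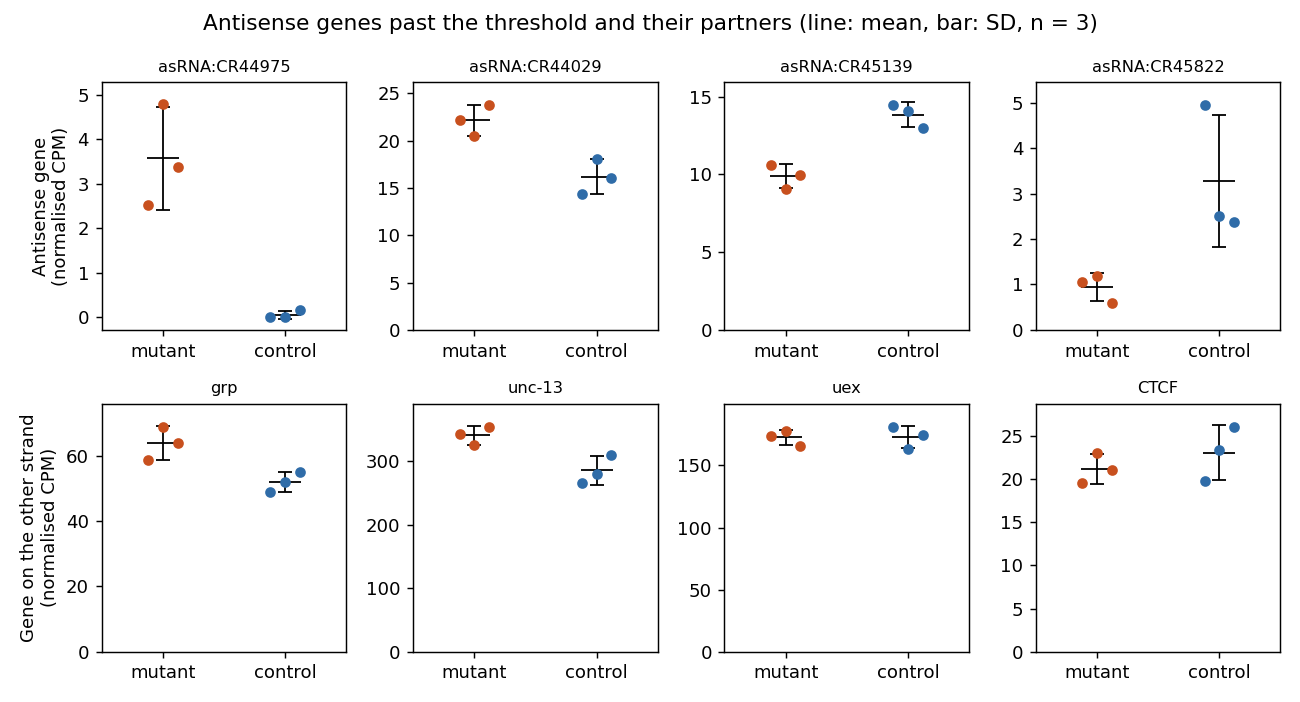
Normalised expression (CPM) of the 4 antisense genes past the threshold (upper row) and of their partners on the other strand (lower row) in the mutant and control lines. Points are libraries, lines are means and bars SD (n = 3), and the lines lie apart for each antisense gene while those of uex and CTCF overlap.

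Whether an antisense gene and its partner moved by different amounts was tested on the log2 ratio of their levels within each library. limma was used over all 1386 pairs of tested genes that share exonic bases on opposite strands, with a pseudocount of 2 reads. The ratio of reads within a library does not depend on the scaling between libraries. The pseudocount follows the scaled library size, so the tested ratios of rare genes do depend on it. Some antisense genes share exonic bases with more than one tested gene. Of 57 pairs with an antisense gene 5 passed (8.77%), against 14.2% of all pairs. The ratio of asRNA:CR44975 to grp differed most. It had 4.29, 6.96 and 5.30 reads per 100 grp reads in the mutant libraries, against 0, 0 and 0.294 in the control libraries. On the pseudocount scale, which understates changes of rare genes, the log2 ratio was 4.15 higher (standard error 0.43, limma adjusted p 3.76e-05). As asRNA:CR44975 met the filter through the mutant line alone, this ratio cannot be read apart from that filter.

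Both antisense genes that fell did so against their partner. There were 5.42, 5.14 and 2.79 asRNA:CR45822 reads per 100 CTCF reads in the mutant libraries, against 25.0, 10.7 and 9.11 in the control libraries, a log2 ratio difference of -1.52 (standard error 0.38, limma adjusted p 0.0159). This call was lost without mutant library 3 or control library 1 (limma adjusted p 0.0762 and 0.0591). For asRNA:CR45139 there were 6.10, 5.10 and 6.01 reads per 100 uex reads in the mutant libraries, against 7.98, 8.61 and 7.43 in the control libraries. The log2 ratio difference was -0.48 (standard error 0.15, limma adjusted p 0.0472), and the call was lost without any one of the 6 libraries.

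Among the 5 pairs, 2 had an antisense gene that did not pass on its own. The gene asRNA:CR44035 (3R, 9810020 to 9813929, reverse strand) lies opposite CG8534, a predicted fatty acid elongase. It had 14, 17 and 14 reads in the mutant libraries, against 2, 11 and 9 in the control libraries, while CG8534 had 9, 16 and 3 reads in the mutant libraries, against 22, 15 and 15 in the control libraries. The log2 ratio was 2.01 higher in the mutant line (standard error 0.61, limma adjusted p 0.0420), and this call was lost without mutant library 1, mutant library 3 or control library 1. The antisense gene met the filter through the mutant line alone. CG8534 reached the filter's count in every control library and, in the mutant line, only in library 2. This ratio difference cannot be read apart from that filter. The gene asRNA:CR45024 (3R, 20677080 to 20677858, forward strand) had 5, 13 and 9 reads in the mutant libraries and 6, 15 and 17 in the control libraries. Its partner CG4000 rose to 13.7 ± 3.40 CPM in the mutant line, against 5.29 ± 0.82 CPM in the control line (SD, n = 3 each), with an edgeR adjusted p of 0.00351. The pair had 1.93, 8.23 and 4.37 antisense reads per 100 CG4000 reads in the mutant libraries, against 9.52, 12.3 and 19.5 in the control libraries. The log2 ratio difference was -1.60 (standard error 0.49, limma adjusted p 0.0450), and the call was lost in 4 of 6 fits that left out one library, those without mutant library 1 or 3 or control library 2 or 3. It was also lost with a pseudocount of 0.5 reads (limma adjusted p 0.0683).

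The partners passed the test at about the rate of all genes. Of 53 partners 12 passed the test (22.6%, against 22.3% of all tested genes), 9 higher and 3 lower in the mutant line, with a median log2 fold change of 0.05. Those higher besides grp, unc-13, CG3987 and CG4000 were CG31626, kcc, gce, whd and svr. The gene kcc encodes a potassium chloride cotransporter, gce a juvenile hormone receptor, whd carnitine palmitoyltransferase and svr a carboxypeptidase. At kcc the level was 357 CPM in the mutant line, against 244 CPM in the control line, a log2 fold change of 0.55 (edgeR adjusted p 0.00298). CG31626 was at 181 CPM in the mutant line and 84.6 CPM in the control line (log2 fold change 1.09, edgeR adjusted p 0.0135). Its antisense gene asRNA:CR45713 had a log2 fold change of 0.77 (standard error 0.39), which did not pass. The 3 lower partners were CG5850, dbr and CG4747. With the gene of the most shared bases as partner, 11 passed, 9 higher and 2 lower, since galectin takes the place of dbr.

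The estimated changes of antisense gene and partner had the same sign in 32 of 53 cases and opposite signs in 21. In 21 cases both were above 0 and in 11 both below. In 10 the antisense gene was above 0 and its partner below, and in 11 the reverse. Spearman's rho between the log2 fold changes was 0.25 over the 53 genes, and Pearson's r was 0.13, or 0.12 without asRNA:CR44975. These describe genes measured in the same libraries, and the pair asRNA:CR45479 and asRNA:CR44690 enters in both directions. With the gene of the most shared bases as partner, 33 had the same sign.

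**Figure D5:**
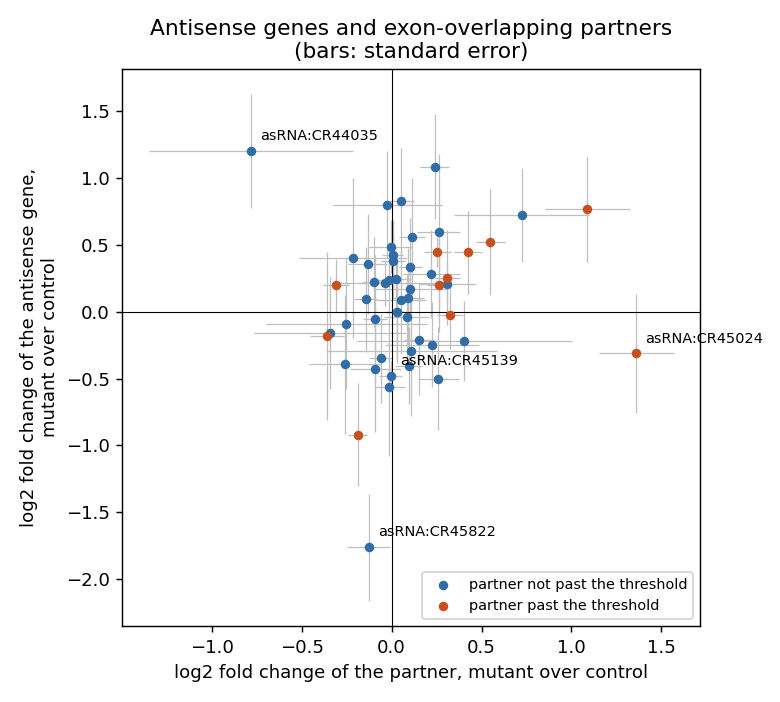
The log2 fold change of each antisense gene against that of its exon-overlapping partner, mutant over control, with standard errors for both and colour for whether the partner passed the test. The plot leaves out asRNA:CR44975, whose change of 5.75 is off this scale, and 32 of the 53 pairs have the same sign.

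Some antisense genes lie opposite genes of the Hedgehog and Wingless pathways, in which Shaggy acts, or of cell death, and these were picked after their values were seen. Opposite ci, the transcription factor of Hedgehog signalling, asRNA:CR43957 on chromosome 4 was at 1.33, 1.38 and 1.63 CPM in the mutant libraries, against 0.943, 1.33 and 1.35 CPM in the control libraries. Opposite rdx, which targets the Ci protein for degradation, asRNA:CR43460 was at 3.97 ± 0.34 CPM in the mutant line and 3.34 ± 0.61 CPM in the control line (SD, n = 3 each). Opposite Coop, a corepressor in the Wingless pathway, asRNA:CR43723 had 7, 13 and 4 reads in the mutant libraries, against 9, 11 and 16 in the control libraries. In each of the 3 the lines overlapped, with edgeR adjusted p of 0.583, 0.441 and 0.559. Opposite dbr, a gene with a role in the turnover of Ci, asRNA:CR44987 was at 4.89 ± 0.64 CPM in the mutant line and 4.26 ± 0.67 CPM in the control line (SD, n = 3 each). Its log2 fold change was 0.20 (standard error 0.20), while dbr itself fell by 0.31 (standard error 0.07, edgeR adjusted p 0.0185). The ratio in this pair did not pass (limma adjusted p 0.161). The same antisense gene shares 996 bases with galectin and 352 with dbr. Opposite p53, which acts in cell death after DNA damage, asRNA:CR46089 was at 1.21 ± 0.34 CPM in the mutant line and 0.994 ± 0.160 CPM in the control line (SD, n = 3 each), with a log2 fold change of 0.29 (standard error 0.33).

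The antisense genes on X nearest the engineered gene, which starts at 2633952, were not among those that passed. The start positions of asRNA:CR45479, asRNA:CR44690 and asRNA:CR43637 are 2173480, 2175817 and 2200623. Their log2 fold changes were -0.22 (standard error 0.30), 0.40 (0.60) and -0.21 (0.42). The 4 calls lay 1 each on 2L, 2R, 3L and chromosome 4.

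Beyond the called genes, the mutant and control values did not overlap for 6 more, which makes 10 of 58 (17.2%, against 41.9% of all tested genes). Of these 7 were higher (12.1%, against 21.9% of all tested genes) and 3 lower (against 2105 of all 10526 tested genes). Among all genes under 1 CPM 24.9% did not overlap, and from 1 to 5 CPM 32.3% did not. Just outside the threshold, asRNA:CR45485 (X, 16307032 to 16308687, forward strand) had 4, 3 and 7 reads in the mutant libraries, against 9, 18 and 14 in the control libraries. Its log2 fold change was -1.36 (standard error 0.42, edgeR adjusted p 0.0503), and it passed with library size as the sole scaling (0.0443) and with upper-quartile factors (0.0468). In the other 11 of 13 alternatives asRNA:CR45485 did not pass. The edgeR adjusted p was 0.0611 to 0.154 with a library left out, and the DESeq2 Wald test gave an adjusted p of 0.174. Next was asRNA:CR44035, described above, with a log2 fold change of 1.20 (standard error 0.43, edgeR adjusted p 0.0774). Opposite Cdk4, a kinase that drives cell growth and the cell cycle, asRNA:CR44375 had 23, 13 and 12 reads in the mutant libraries, against 6, 9 and 10 in the control libraries, a log2 fold change of 1.09 (standard error 0.39, edgeR adjusted p 0.0813). With asRNA:CR44975 and asRNA:CR45822 these are the 5 antisense genes with an estimate of at least 2-fold. The filter asks for a count of 10, scaled to library size, in 3 libraries. Of the 5, asRNA:CR44975, asRNA:CR44035 and asRNA:CR44375 met it through the mutant line alone, and asRNA:CR45485 through the control line alone. Their large estimates and lack of overlap cannot be read apart from that filter. Just inside the threshold were asRNA:CR45139 and asRNA:CR44029.

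The antisense genes varied widely between collections of one line. Their median biological coefficient of variation, as fitted per gene, was 22.2%, against 9.61% over all tested genes. Under 1 CPM it was 22.9% for antisense genes and 24.3% for all genes. From 1 to 5 CPM it was 22.5% and 20.0%, and above 5 CPM, with 6 antisense genes, 12.4% and 8.74%. The highest library of a line was a median of 1.78 times the lowest in the mutant line and 1.61 times in the control line. Single libraries stood apart in some genes. In asRNA:CR45009, opposite the fucosyltransferase gene FucTC, control library 1 had 1 read where control libraries 2 and 3 had 17 and 14, and the mutant libraries had 20, 12 and 10. In asRNA:CR44873, opposite CG4747, the levels were 1.73, 1.12 and 0.978 CPM in the mutant libraries, against 2.52, 3.32 and 1.41 CPM in the control libraries. The lines overlapped and the gene did not pass (log2 fold change -0.92, standard error 0.38, edgeR adjusted p 0.122), while CG4747 fell by 0.19 (standard error 0.05, edgeR adjusted p 0.0382).

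A further 7 genes that the reference now names asRNA: were tested under other names in the authors' deposited table and are not among the 58. None of these 7 passed in edgeR's test, and 0 had an unadjusted p under 0.05, with log2 fold changes from -0.41 to 0.80. In the authors' deposited table, made with limma-voom, the same 4 of the 58 antisense genes had an adjusted p under 0.05, against 22.6% of all its genes. The authors' deposited table runs its fold changes as control over mutant, and has asRNA:CR44975 at -5.92 on the log2 scale (adjusted p 0.00136).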

How the data were processed

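Embryo RNA was measured in 3 mutant and 3 control libraries, made from 100 ng of RNA each with a poly(A) selection and a directional single-end kit, per the labels' protocols. The authors deposited raw counts per gene for 17493 genes, in whole reads. They also deposited a table of 10526 genes with log2 CPM, log2 fold changes (control over mutant), p-values and adjusted p-values, and test scores (a moderated t and log odds), made with limma-voom per the file headers and name. The submitters' processing notes name TopHat2 2.1.1, Bowtie2 2.3.4.0, edgeR 3.14.0 and limma 3.28.21. The genome build, annotation, counter and use of strand are not given in the sources used here.

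From the counts, genes were kept by edgeR's filterByExpr (minimum count 10, minimum total 15), scaled by TMM and tested with glmQLFit and glmQLFTest (edgeR 4.0.16, R 4.3.3), two-sided, with no covariate. The standard error is the log2 fold change over the square root of F. Ratios of overlapping pairs were tested with limma 3.58.1 on log2 CPM with a pseudocount of 2, with a prior variance that depends on the rarer gene. DESeq2 1.42.0 and limma-voom were alternatives, beside other scalings, filters, thresholds and each library left out. The fit code was tested on simulated data. Positions, exons and names come from Ensembl release 115 (BDGP6), matched by gene identifier, and 131 of the 17493 genes had no model there.

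The antisense genes, gene lists and tests were chosen with earlier results of these data known. Named in full were the 6 most abundant antisense genes, those called with lines that did not overlap, the 2 nearest the threshold on either side, their partners, and the 5 pairs with the smallest ratio p. Other genes were named after their values were seen. Levels per unshared base, and partners taken by the most shared bases in place of the most abundant, were added after seeing the data. The counts of all 58 genes were equal in both deposited tables. The replicate numbers in the labels are not said to pair collections.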

Additional observations from a re-analysis of the deposited data

How the results depend on the processing

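The 4 antisense calls were the same genes under DESeq2 size factors, no filter, the filter of 1 CPM in 3 libraries (38 antisense genes tested), the DESeq2 Wald test and limma-voom, and 5 passed under upper-quartile scaling or library size alone. A threshold of 0.01 left 1 call and 0.1 gave 7. With each library left out, 1 to 5 antisense genes passed, 1 to 3 higher and 0 to 2 lower, and without mutant library 3 only asRNA:CR44975 passed. The median log2 fold change of the antisense genes was 0.09 to 0.22 in those fits and 0.15 to 0.21 in the others. Deviations from the line mean had correlations of -0.018, -0.019 and 0.010 between equal replicate numbers, and of -0.104 to 0.126 between unequal ones. With 3 libraries per line these values cannot decide whether collections were paired by number. With the number as a block, the same 4 antisense genes and 1994 of all genes passed, against 2350 without it, and the ratio test gave 4 pairs, without asRNA:CR45139 to uex (limma adjusted p 0.0634). The ratio test gave 1 pair with a constant prior variance, 4 with a pseudocount of 0.5 reads, 3 with the 1 CPM filter, under which the pairs of asRNA:CR44035 and asRNA:CR45024 were not tested, and 1 to 4 with a library left out. The log2 fold change of sgg, near 0, turned to -0.0039 under upper-quartile scaling and -0.024 with library size alone, and ran from -0.026 to 0.0402 with a library left out. With a library left out, Cht6 ran from -0.0764 to 0.383, uex from -0.0584 to 0.0282 and CG17162 from -0.222 to 0.153. Of 316 alternative estimates for 24 genes and ratios, sgg left out, 265 kept direction and call, 42 lost the call, 4 gained one and 5 reversed. The cause of these changes was not tested. Depth limits the antisense results, since 30 of the 58 genes had fewer than 10 reads in a library and the median standard error was 0.38 on the log2 scale.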
